A study of Mus musculus with 9 samples.

Results

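The genes described here are 10 of the G1 checkpoint: the 3 D-type cyclins (Ccnd1, Ccnd2 and Ccnd3), their kinases (Cdk4 and Cdk6), inhibitors of the kinases (Cdkn1b, Cdkn2c and Cdkn2d) and members of the retinoblastoma family (Rb1 and Rbl1). They were listed by name and are 10 of the 19938 genes measured. Ccnd2 was chosen by its log2 intensities in these same arrays, where it was higher in brain lines, so its values are a description and carry no test. The other 9 were listed for their role, with earlier results known. Expression was measured on 1 array each in 9 cell lines, each regrown from a different mouse that carried 4T1 cells, which come from a mammary carcinoma. The origins were the primary tumor (4T1-T2, 3 lines), metastases to the lung (4T1-LM2, 3 lines) and metastases to the brain (4T1-BM2, 3 lines), with mice numbered 1 to 3 in each. The labels name no treatment and state that culture and RNA extraction ran in parallel, so the values are those of cells in a dish. The labels do not state what the name shared by the lines of an origin marks, and if those lines had a selected ancestor in common, the p-values measure only the spread between these cultures.

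D-type cyclins bind Cdk4 or Cdk6 in the G1 phase of the cell cycle, and the active kinases phosphorylate the retinoblastoma protein and its relative p107, encoded by Rbl1. Phosphorylation releases E2F transcription factors, which switch on genes of DNA replication. Proteins of the INK4 family, among them p18 (Cdkn2c) and p19 (Cdkn2d), block Cdk4 and Cdk6, while p27 (Cdkn1b) restrains mainly the cyclin E and Cdk2 complex and is itself bound by D-type cyclins. The 3 D-type cyclins are encoded by separate genes that are induced by growth signals, often in a tissue-specific way.

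All values are log2 intensities, so 1 unit is a 2-fold difference, and levels of different genes are not compared because each is read by its own probes. A difference was called where limma, in 1 model of the 9 arrays, gave an adjusted p under 0.05 (Benjamini-Hochberg, over the 19938 genes), and values after ± are SDs over 3 lines for a level and SEs of the model for a difference. Brain line 3 and lung line 1 had the widest spread around the probe set medians, with interquartile ranges of 0.201 and 0.186, and the other arrays had 0.116 to 0.141. In RNA of whole cultures, fewer cells of a type and less RNA per cell cannot be told apart. Of 9 measured epithelial markers 8 had a mean above the median of all genes (5.77) in each origin, and Krt5 did not, at 4.40 in brain, 4.38 in lung and 4.23 in primary lines. The mean over the list was 8.73 to 9.19 in primary, 8.87 to 9.23 in lung and 9.70 to 9.82 in brain lines. Of these markers 3 rose in brain against primary lines (Cdh1, Krt19 and Krt14), where 3.13% of all genes passed. In brain against lung lines 2 rose (Krt14 and Cldn7), beside 1.98% of all genes. The part of these markers in the results below was not tested. For markers of fibroblasts, leukocytes, endothelium, neural and glial cells and lung epithelium, the list means were 4.13 to 5.27 over all lines. The median of probe sets with no gene symbol was 4.21. Of the 32 measured genes of these lists 0 passed in any comparison, which says little beside 3.13%, 1.98% and 0% of all genes. The genes of these lists with a group mean above the median of all genes were Pdgfra, Col1a1, Col3a1, Cd68 and Mbp.

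Ccnd2, which encodes cyclin D2, was the gene of the set that differed most between the origins. Its level was 9.66, 9.85 and 9.31 in brain lines 1, 2 and 3. In lung lines it was 7.69, 7.32 and 7.33, and in primary lines 7.03, 6.94 and 6.25. The levels were ordered primary, lung, brain, and no group overlapped another: every brain line lay above every lung line, and every lung line above every primary line. Of all genes, 17.8% did not overlap between brain and primary lines, 16.9% between brain and lung lines and 8.71% between lung and primary lines. The means were 9.61 ± 0.27 in brain, 7.45 ± 0.21 in lung and 6.74 ± 0.42 in primary lines (SD, n = 3 each).

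Brain lines thus exceeded primary lines in Ccnd2 by 2.86 ± 0.21 on the log2 scale (SE), or 7.28-fold, with a 95% interval of 2.39 to 3.33. They exceeded lung lines by 2.16 ± 0.21, or 4.46-fold (1.69 to 2.63). Both comparisons share the brain lines. By size of the log2 difference Ccnd2 ranked 3 of 19938 genes in the first and 6 in the second. Between lung and primary lines the difference was smaller, 0.71 ± 0.21 or 1.63-fold (0.24 to 1.18), where Ccnd2 ranked 26. This last difference was 0.46 without primary line 3, whose Ccnd2 level was the lowest of all, and 0.59 without lung line 1. Without brain line 3, the differences from primary and lung lines were 3.01 and 2.31. These intervals and ranks describe a gene chosen by its values, are not adjusted for that choice and are no test. Between lung and primary lines, 0 of the 19938 genes passed in limma.

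**Figure D1:**
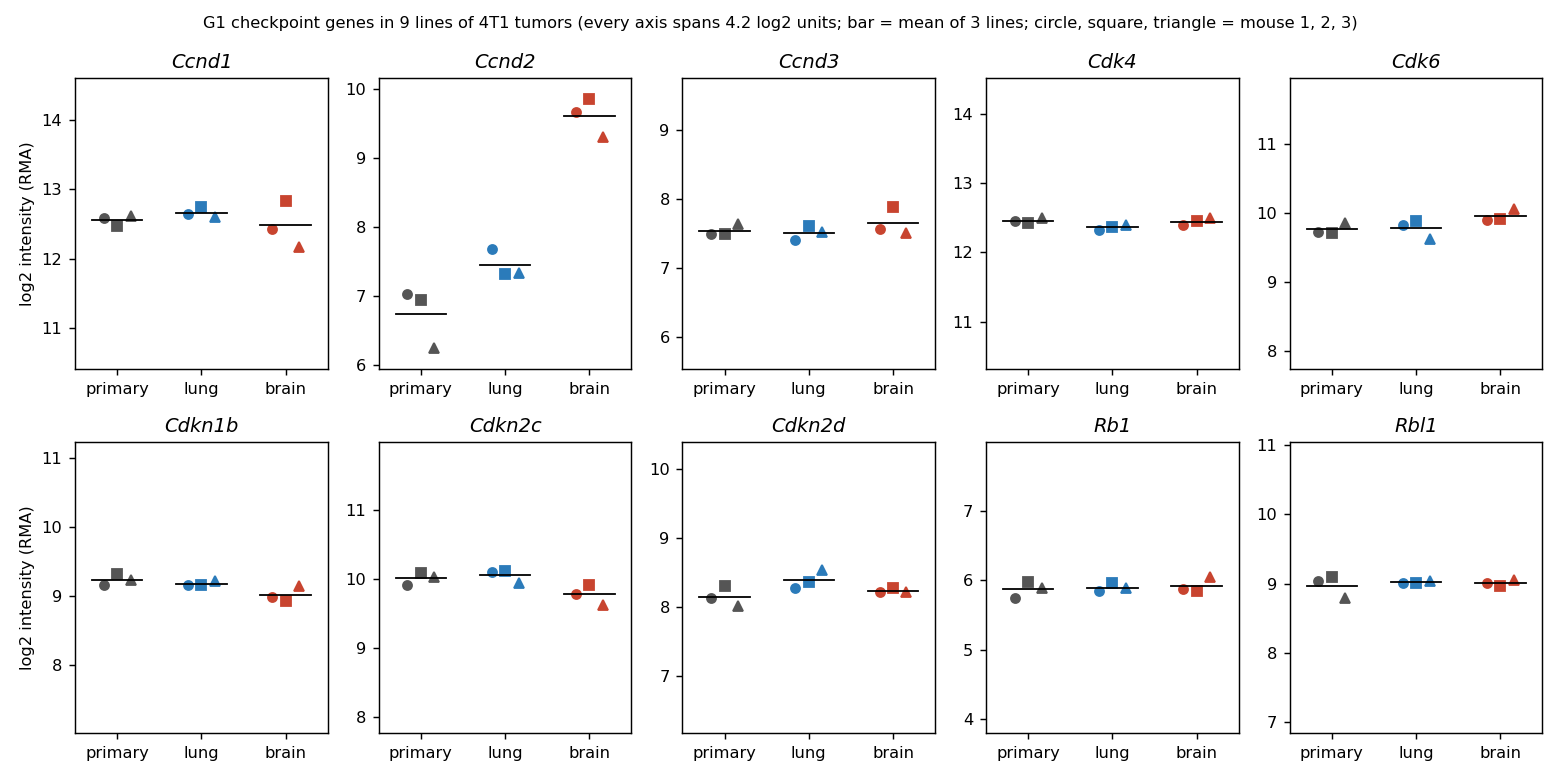
Log2 intensity (vertical axis) of each of the 10 genes in the primary, lung and brain lines (horizontal axis), 1 point per line, shaped by mouse number, with a bar at the mean of 3 lines. Every panel spans the same number of log2 units, and Ccnd2 is the gene whose 3 groups are separate, at means of 6.74, 7.45 and 9.61.

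Neither of the other D-type cyclins passed in any comparison. Ccnd1, which encodes cyclin D1, the D-type cyclin most often linked to mammary carcinoma, was 12.43, 12.84 and 12.17 in brain lines, 12.65, 12.74 and 12.60 in lung lines and 12.58, 12.47 and 12.62 in primary lines. Brain lines 2 and 3 held both the highest and the lowest Ccnd1 value of the 9, so the brain group spanned the others. Its difference was -0.08 ± 0.14 in brain against primary lines (limma adjusted p = 0.89) and -0.18 ± 0.14 in brain against lung lines (adjusted p = 0.639). Ccnd3, which encodes cyclin D3, was 7.57, 7.88 and 7.51 in brain, 7.40, 7.61 and 7.52 in lung and 7.49, 7.49 and 7.64 in primary lines. The groups overlapped, and the differences were 0.11 ± 0.11 in brain against primary lines (adjusted p = 0.719) and 0.14 ± 0.11 against lung lines (adjusted p = 0.604). For both cyclins the highest value of the 9 lines was that of brain line 2, which was also the highest for Ccnd2.

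Neither kinase passed in any comparison. Cdk4 had the narrowest range of the 10 genes, from 12.33 to 12.50 over the 9 lines, and 4.7% of all genes had a narrower one. Its values were 12.39, 12.45 and 12.49 in brain, 12.33, 12.36 and 12.40 in lung and 12.45, 12.42 and 12.50 in primary lines, a difference of -0.02 ± 0.06 in brain against primary lines (adjusted p = 0.952). Every lung line lay below every primary line in Cdk4, by 0.10 on average (adjusted p = 0.975). Cdk6, the other kinase partner, was 9.90, 9.91 and 10.06 in brain lines, 9.82, 9.88 and 9.63 in lung lines and 9.73, 9.71 and 9.86 in primary lines. All 3 brain lines were above all 6 other lines in Cdk6, but the differences of 0.19 ± 0.09 from primary lines (adjusted p = 0.317) and 0.18 ± 0.09 from lung lines (adjusted p = 0.363) did not pass.

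Cdkn1b and Cdkn2c, the genes of p27 and p18, had lower mean levels in brain lines, by amounts that did not pass. Cdkn1b was 8.99, 8.93 and 9.15 in brain, 9.17, 9.16 and 9.22 in lung and 9.16, 9.32 and 9.23 in primary lines. All brain lines lay below all others, with brain line 3 just under the nearest primary and lung lines. The difference was -0.22 ± 0.08 from primary lines (adjusted p = 0.19) and -0.16 ± 0.08 from lung lines (adjusted p = 0.368). A second, dimmer probe set of Cdkn1b did not show this order. It was 7.81, 7.71 and 7.87 in brain, 7.01, 7.86 and 7.88 in lung and 7.90, 7.84 and 8.04 in primary lines, with lung line 1 apart from the rest, and its brain against lung difference had the other sign (0.21 ± 0.21). Cdkn2c was 9.79, 9.92 and 9.63 in brain, 10.10, 10.12 and 9.94 in lung and 9.91, 10.09 and 10.03 in primary lines. Brain and primary lines overlapped in Cdkn2c by a single pair, brain line 2 and primary line 1, while all lung lines were above all brain lines. Its differences were -0.23 ± 0.09 from primary lines (adjusted p = 0.252) and -0.27 ± 0.09 from lung lines (adjusted p = 0.191).

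Cdkn2d, the gene of p19, differed from Cdkn2c in where its values lay. It was 8.22, 8.27 and 8.22 in brain, 8.28, 8.36 and 8.54 in lung and 8.13, 8.30 and 8.02 in primary lines. The lung lines were the high group, above all brain lines and overlapping primary line 2. The lung lines differed from primary lines by 0.24 ± 0.09 and brain from lung lines by -0.16 ± 0.09, neither of which passed (adjusted p = 0.975 and 0.483).

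Neither retinoblastoma family gene passed, and the groups overlapped in both. Rb1 was 5.87, 5.84 and 6.05 in brain, 5.84, 5.96 and 5.89 in lung and 5.74, 5.98 and 5.89 in primary lines, and the brain against primary difference was 0.05 ± 0.09 (adjusted p = 0.876). These levels lay near the median of all genes (5.77), with no detection p given, so a flat reading of Rb1 says little. Rbl1, which encodes p107, was 9.01, 8.97 and 9.05 in brain, 9.01, 9.01 and 9.03 in lung and 9.03, 9.09 and 8.79 in primary lines. Apart from primary line 3, at 8.79, the 8 other lines lay between 8.97 and 9.09, and the brain against primary difference was 0.04 ± 0.08 (adjusted p = 0.907).

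Rbl1 is at once a part of the checkpoint and a known target of E2F, and its promoter is shown because it is the only listed member promoter with a match to the E2F motif searched. The stretch is the 250 bases before the gene's start in RefSeq (GRCm38.p6, chr2:157204535-157204784, minus strand), with the E2F motif in capitals.

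Rbl1: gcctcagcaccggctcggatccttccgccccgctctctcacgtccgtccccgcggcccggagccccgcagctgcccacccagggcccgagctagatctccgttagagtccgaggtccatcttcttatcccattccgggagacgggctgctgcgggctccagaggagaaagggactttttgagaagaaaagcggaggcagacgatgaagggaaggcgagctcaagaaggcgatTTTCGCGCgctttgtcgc

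The motif searched was TTTCGCGC, TTTGGCGC or TTTCCCGC on either strand. The match is TTTCGCGC, 11 to 18 bases before the start. Promoters were listed for 7 of the 10 genes, and 1 of their 9 promoters held a match, that of Rbl1, beside 1.53% of 32851 mouse promoters of the same length. The match describes these letters only.

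Counted together, 0 of the 9 genes other than Ccnd2 passed in limma in brain against primary lines, where 3.13% of all genes passed. None passed in brain against lung lines either, beside 1.98% of all genes, or in lung against primary lines, beside 0%. At an unadjusted p under 0.05 there were 2 in the first comparison (Cdkn1b and Cdkn2c), 1 in the second (Cdkn2c) and 1 in the third (Cdkn2d), beside 15.8%, 14.9% and 4.74% of all genes, and without moderation of the variances 0 were called in each as well. The groups did not overlap in 2 of the 9 genes in brain against primary lines, in 4 in brain against lung lines and in 1 in lung against primary lines, beside the same 17.8%, 16.9% and 8.71% of all genes. The median log2 difference of the 9 was 0.04, -0.01 and 0.03 in the 3 comparisons, where that of all genes was 0.00, -0.01 and 0.01. The 95% intervals of the 9 genes, not adjusted for their number, lay between -0.50 (Ccnd1, brain against lung lines) and 0.45 (Cdkn2d, lung against primary lines).

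**Figure D2:**
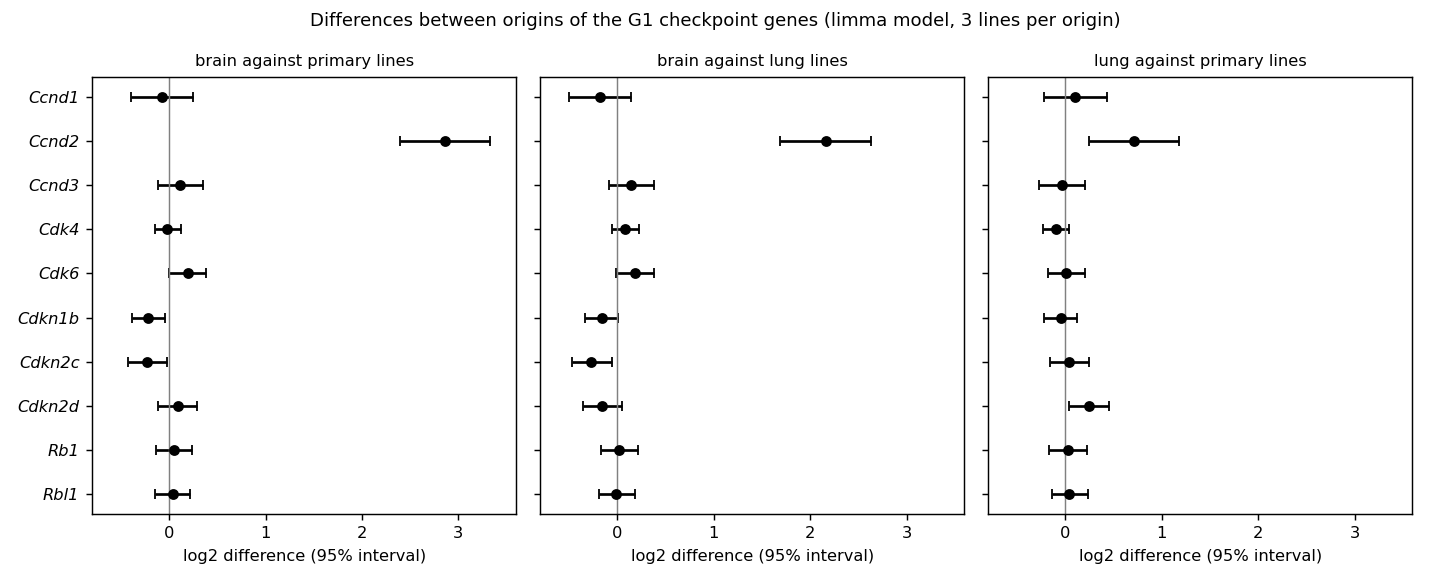
Log2 difference between origins (horizontal axis) of each of the 10 genes, with the 95% interval of the limma model, in brain against primary, brain against lung and lung against primary lines. Ccnd2 lies at 2.86, 2.16 and 0.71, and the points of the other 9 genes lie between -0.27 and 0.24.

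The wider pathway was read from 9 lists of cyclins, kinases, regulators and targets, 187 of whose 192 genes were measured. In brain against primary lines 2 of the 187 rose and 6 fell, 4.28% beside 3.13% of all genes. In brain against lung lines 2 rose and 5 fell, 3.74% beside 1.98%. In lung against primary lines 0 passed in limma, 15 (8.02%) had an unadjusted p under 0.05, beside 4.74% of all genes, and 0 were also called without moderation. The brain against primary count was 4, 3 and 3 without brain lines 1, 2 and 3, beside 485, 338 and 413 of all genes. With all 9 lines, 624 of all genes passed. The count was 5 and 3 without lung lines 2 and 3, beside 417 and 428 of all genes. Without lung line 1, 3 rose and 4 fell, beside 556. The count was 4, 2 and 4 without primary lines 1, 2 and 3, beside 319, 273 and 366. The brain against lung count was likewise 4, 1 and 3 without a brain line, beside 286, 208 and 217 of all genes. It was 3, 2 and 1 without a lung line, beside 136, 69 and 142. Without primary lines 1, 2 and 3, 1 gene rose each time and 5, 4 and 5 fell, beside 301, 299 and 417. With all 9 lines, 395 of all genes passed. After median centring of the arrays, 1 rose and 3 fell against primary lines, and 1 rose and 1 fell against lung lines. Of all genes, 512 and 306 passed after median centring.

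The fall in Ccng2 was the largest of these. Ccng2 encodes cyclin G2, an unconventional cyclin that has been linked to cell cycle arrest. Its level was 7.49, 7.66 and 7.83 in brain lines, 8.51, 8.51 and 8.61 in lung lines and 8.73, 8.85 and 9.07 in primary lines. The 3 groups did not overlap, in the order opposite to that of Ccnd2. Ccng2 was 2.33-fold lower in brain than in primary lines (log2 difference -1.22 ± 0.11, limma adjusted p = 0.00116) and 1.84-fold lower than in lung lines (-0.88 ± 0.11, adjusted p = 0.00633). Both calls held without any 1 of the 9 lines, with adjusted p up to 0.00871 and 0.0362. The second was lost without moderation of the variances (adjusted p = 0.0821). Between lung and primary lines the value was -0.34 ± 0.11 (adjusted p = 0.975). In the same list of other cyclins and kinases Ccnjl, a cyclin J-like gene with levels below the median of all genes, fell in brain against primary lines (4.38 and 5.08, difference -0.71 ± 0.07, adjusted p = 0.00159, and up to 0.00949 without any 1 line) and in brain against lung lines (-0.41 ± 0.07, adjusted p = 0.0215).

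The remaining calls were small. Ccndbp1, which encodes a protein that binds D-type cyclins, fell in brain against primary lines by 0.29 on the log2 scale (adjusted p = 0.0494). Cdk8, a kinase of the Mediator complex, rose by 0.33 ± 0.07 against primary lines and 0.32 ± 0.07 against lung lines (adjusted p = 0.0328 and 0.0474). Among regulators of the D-type cyclin and p27 genes, Mxd4, whose product opposes Myc, fell (-0.57 ± 0.11, adjusted p = 0.0236), as did the polycomb gene Bmi1 (-0.42 ± 0.10, adjusted p = 0.0495), both in brain against primary lines. Myc itself was at 11.19 in brain and 10.84 in primary lines (adjusted p = 0.156). In the list on the turnover of G1 cyclins and p27, Fbxw7, a ubiquitin ligase subunit that targets cyclin E and Myc, rose against primary lines (0.34 ± 0.07, adjusted p = 0.0342) and lung lines (0.42 ± 0.07, adjusted p = 0.0215). Usp22, a deubiquitinase, fell in the same comparisons (-0.38 ± 0.08 and -0.45 ± 0.08, adjusted p = 0.0324 and 0.0217). Fbxo31, an F-box protein that marks cyclin D1 for degradation after DNA damage, fell against lung lines (-0.57 ± 0.11, adjusted p = 0.0281).

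Each of these smaller calls, and that of Ccnjl in brain against lung lines, was lost when some lines were left out. Ccndbp1 against primary lines and Cdk8 against lung lines were called in 0 of the 9 fits that left out a line, and Bmi1 in 1. Fbxw7, Usp22 and Cdk8 against primary lines and Fbxo31 against lung lines were called in 2 each, Ccnjl against lung lines in 3, and Mxd4 against primary lines and Fbxw7 and Usp22 against lung lines in 5 each. Against primary lines, the highest adjusted p was 0.147 for Ccndbp1 and Bmi1 (without primary line 2), 0.102 for Cdk8 (without primary line 3) and Fbxw7 (without primary line 1), 0.0978 for Usp22 (without primary line 3) and 0.0857 for Mxd4 (without primary line 2). Against lung lines it was 0.131 for Cdk8 and 0.075 for Fbxw7 (without lung line 3), and 0.105 for Fbxo31, 0.0958 for Usp22 and 0.0956 for Ccnjl (without lung line 2).

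**Figure D3:**
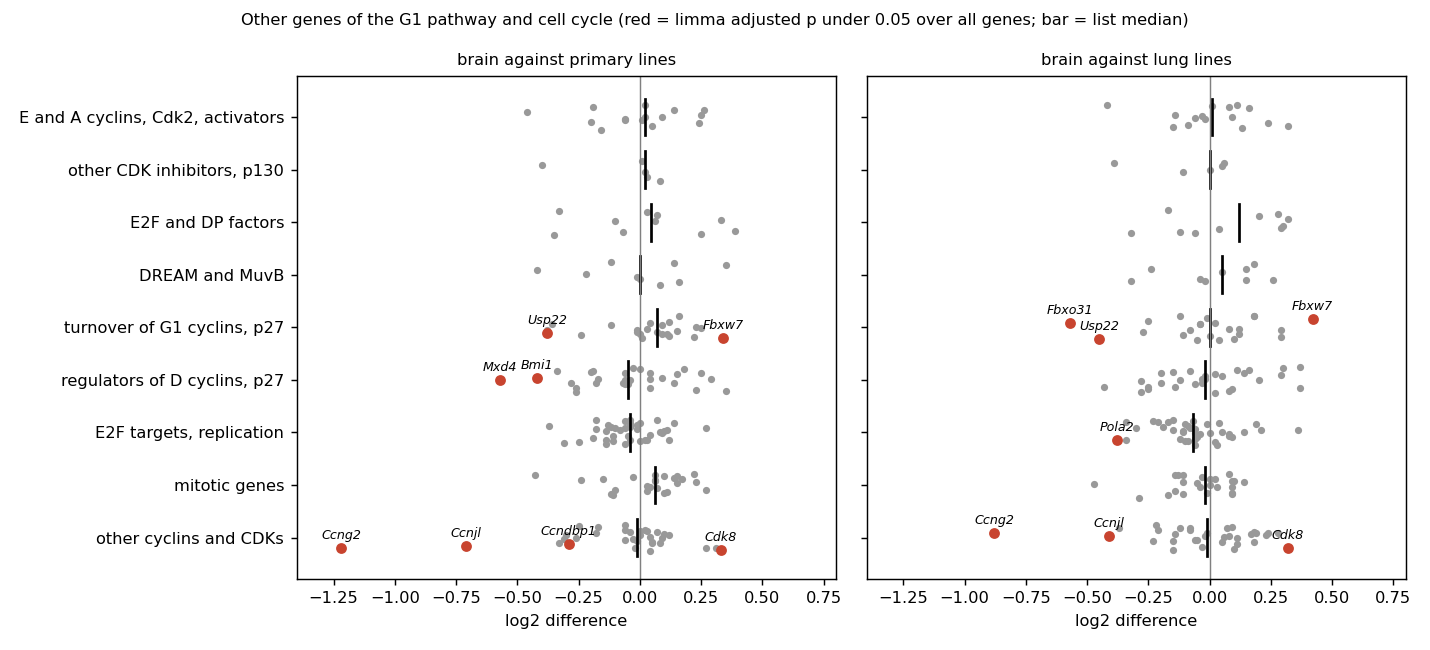
Log2 difference (horizontal axis) of the 187 other genes of the pathway and cell cycle in 9 lists (rows), in brain against primary lines and in brain against lung lines. Red points are genes called by limma over all genes, grey points were not called and black bars are list medians. Ccng2, at -1.22 and -0.88, lies farthest from 0.

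Downstream of the checkpoint, the E2F arm held 1 call. Of 39 measured E2F target genes of DNA replication, 0 passed in limma in brain against primary lines. At an unadjusted p under 0.05 there were 4 (10.3%), beside 15.8% of all genes. In brain against lung lines 1 fell, Pola2, a subunit of DNA polymerase alpha (-0.38 ± 0.07, adjusted p = 0.023). The call on Pola2 was lost without lung line 2 (0.101), lung line 3 (0.0797), brain line 1 (0.0622) or brain line 2 (0.0735). The median of the list was -0.04 and -0.07 in the 2 comparisons, and its largest values against primary lines were those of Chaf1b, a histone chaperone subunit (-0.37 ± 0.12, adjusted p = 0.162), and the helicase gene Mcm7 (-0.31 ± 0.09, adjusted p = 0.0984). None of the 10 E2F and DP factors passed in limma in brain against primary or lung lines. At an unadjusted p under 0.05 there were 5 (50%) against primary and 6 (60%) against lung lines. The shares of all genes were 15.8% and 14.9%. In each comparison 6 of the 10 lay above 0 and 4 below. Against primary lines, the largest values were those of E2f6 (0.39 ± 0.12, adjusted p = 0.124) and Tfdp2 (-0.35 ± 0.13, adjusted p = 0.205). E2f5, which encodes an E2F that acts mainly with p130 in repression, had the smallest adjusted p of the list (0.33 ± 0.08, adjusted p = 0.0531). E2f5 passed with quantile normalization again, without the dimmest genes, with the mouse number as a block and without lung line 1, and Tfdp2 passed with that block. The MuvB core and its partners form the repressive DREAM complex with p107 or p130 and activating complexes with B-Myb or Foxm1. Of 9 of their genes, 0 passed in brain against primary lines. At an unadjusted p under 0.05 there were 3 (33.3%), beside 15.8% of all genes. The Myb family genes Mybl1 and Mybl2, which encodes B-Myb, were at -0.42 ± 0.13 and 0.35 ± 0.10 (adjusted p = 0.14 and 0.115).

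The E-type and A-type cyclins, which act after the D-type cyclins, were listed with Cdk1, Cdk2 and regulators of such kinases, Wee1 and Pkmyt1 among them. This list of 15 genes also held no call. In brain against primary lines 3 (20%) had an unadjusted p under 0.05, beside 15.8% of all genes. Ccne1, which encodes cyclin E1, was 7.79, 7.84 and 8.14 in brain, 8.24, 8.55 and 8.25 in lung and 8.35, 8.52 and 8.27 in primary lines. All brain lines lay below all others, by -0.46 ± 0.12 from primary lines (adjusted p = 0.079), and quantile normalization again brought that value past the threshold. The phosphatase gene Cdc25a was at 0.26 ± 0.08 (adjusted p = 0.115). Among 5 measured other inhibitors and the pocket protein p130, 0 passed (1, or 20%, at an unadjusted p under 0.05, beside the same 15.8%). Rbl2, the gene of p130, was 7.38, 7.36 and 7.24 in brain and 7.68, 7.61 and 7.89 in primary lines, without overlap and just short of the threshold (-0.40 ± 0.09, adjusted p = 0.0521), and it passed when the dimmest genes were left out. Cdkn2a, which encodes p16 and Arf, lay between 5.65 and 5.72 in all 9 lines, and Cdkn1c was at 5.43 in brain and 5.35 in primary lines. Both were below the median of all genes (5.77). Of 24 mitotic genes 0 passed (4, or 16.7%, at an unadjusted p under 0.05, beside 15.8% of all genes). Their largest values were those of the proliferation marker Mki67 (-0.43 ± 0.15, adjusted p = 0.185) and the spindle checkpoint gene Bub1 (0.27 ± 0.12, adjusted p = 0.306). Mki67 passed when primary line 3, at 9.67 its lowest primary value, was left out.

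The genes whose pattern over the 9 lines was most like that of Ccnd2 were ranked by Pearson's r among 760 genes with a range of at least 1 log2 unit. The lines fall into origins, so r mostly follows the distance of the brain lines from the rest and is given as a description. The highest values were those of Tnnt2 (0.980), which encodes a cardiac troponin, Rgs16 (0.962), a regulator of G protein signaling, Dynap (0.962), the matrix protein gene Thbs1 (0.962), Lncenc1 (0.958) and the carbonic anhydrase gene Car12 (0.955). Tnnt2 was 11.22, 11.14 and 11.20 in brain, 10.13, 10.14 and 10.16 in lung and 10.17, 9.97 and 9.51 in primary lines, so that primary line 3 was lowest in Tnnt2 as in Ccnd2. The lowest values were those of Ccng2 (-0.990), Ctxn1 (-0.977) and Plcg2 (-0.973), which encodes a phospholipase. Over the 6 lung and primary lines alone, r with Ccnd2 was -0.96 for Ccng2, -0.95 for Plcg2 and -0.90 for Ctxn1, and it was 0.50 to 0.88 for the 6 genes at the high end. The genes were picked by r over the 9 lines, which include these 6, so high values were favoured and are no separate evidence. Of the other members of the set, Cdkn1b had an r of -0.84 and Cdkn2c of -0.67 over the 9 lines, Cdk6 one of 0.63, and the rest lay between -0.19 and 0.40.

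**Figure D4:**
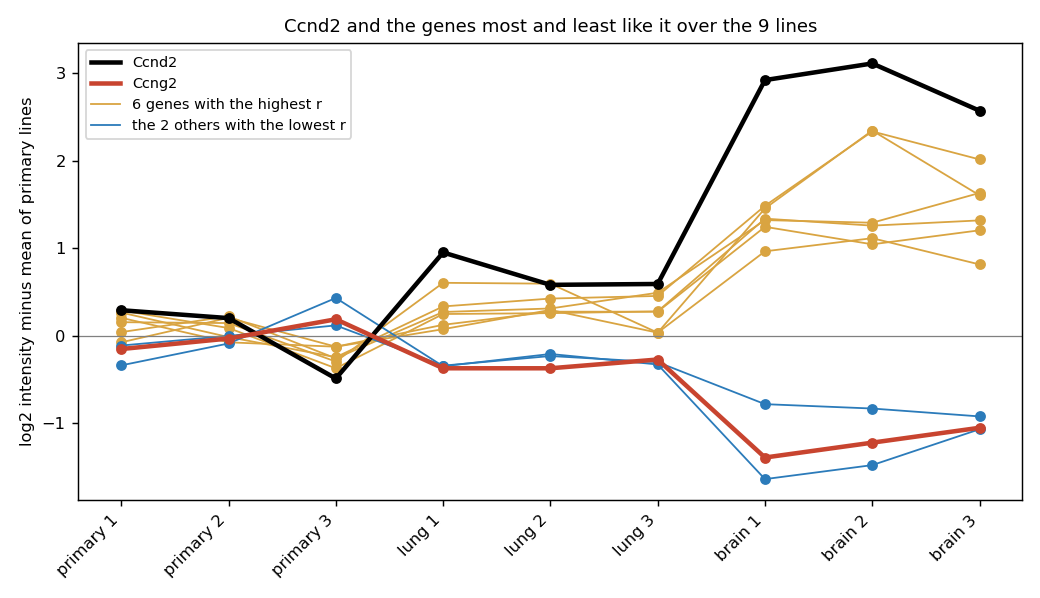
Log2 intensity minus the mean of the primary lines (vertical axis) in each of the 9 lines (horizontal axis) for Ccnd2, Ccng2 and the other genes with the highest and lowest r. Segments join the values of a gene and imply no order of the lines. Ccnd2 is farthest above 0 in the brain lines, and Ccng2, Ctxn1 and Plcg2 lie below 0 in every brain and lung line.

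The genes next to Ccnd2 were read in the RefSeq gene order. Of the 10 measured neighbours on each side, 0 of 20 passed in limma in brain against primary lines and 1 in brain against lung lines, Tspan11, a tetraspanin gene, which fell (-0.79 ± 0.15, adjusted p = 0.0262). These counts stand beside 3.13% and 1.98% of all genes, so few calls among 20 genes say little of the neighbours. The median difference of the 20 was -0.01 in each of these comparisons. Some neighbours were dim: Kcna6, Akap3, Dyrk4, Fgf6 and Prmt8 had mean levels of 4.25, 3.47, 3.84, 4.34 and 3.77. The median of probe sets with no gene symbol was 4.21, so a difference near 0 in these genes says little. Others lay well above it, among them Ndufa9 (9.76) and Foxm1 (9.46). The highest neighbour against primary lines was Tigar, at 0.24 ± 0.14 (adjusted p = 0.465), the gene directly beside Ccnd2, which encodes a fructose bisphosphatase. Foxm1, a transcription factor gene of mitosis that is also among the neighbours, was at 0.16 ± 0.08 (adjusted p = 0.425).

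**Figure D5:**
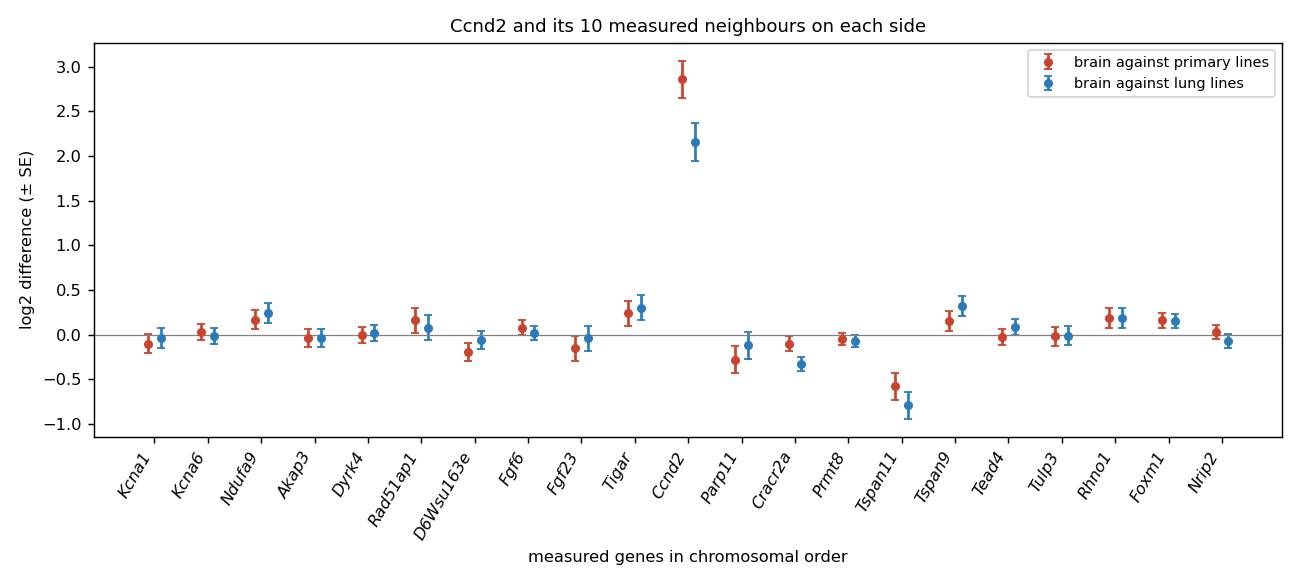
Log2 difference with its SE (vertical axis) of Ccnd2 and its 10 measured neighbours on each side, in chromosomal order (horizontal axis), in brain against primary and brain against lung lines. The neighbours lie between -0.79 and 0.32, beside 2.86 and 2.16 for Ccnd2.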

How the data were processed

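The deposited values are log2 intensities made by the authors with RMA, per the submitters' processing notes, a method that corrects background, quantile normalizes the arrays and summarises each probe set. The log base is read from the range of the values, and the RMA version is not given in the sources used here. No detection p is given. Precision is limited by the number of arrays.

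Of 35557 probe sets, 21789 carried 1 gene symbol in the platform's annotation, 1621 several and 12147 none. Genes were named from the first kind, by the probe set with the highest mean, which left 19938 genes. Cdkn1a shares its probe set with another gene and is not analysed here.

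Limma (version 3.58.1, R 4.3.3; lmFit and eBayes, two-sided) used all 9 arrays and 1 coefficient for each origin (6 residual and 3.72 prior degrees of freedom) and was tested on simulated data. With 3 lines against 3 the smallest exact permutation p is 0.1, so none is given. The members and lists were chosen with earlier results of these data known. The text names all members, up to 6 called genes per pathway list, 2 genes of a list with none called in brain against primary lines, the 6 genes most and 3 least like Ccnd2 (small RNA, olfactory and predicted genes left out) and called neighbours. Myc, E2f5, Cdkn2a, Tigar and Foxm1 fall outside or partly outside this rule and were named with their values known.

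Mouse numbers 1 to 3 recur in every origin. For brain and lung lines of the same number, deviations from the origin's mean had a correlation over genes of 0.284, 0.130 and 0.241, and the other pairs of origins gave -0.044 to 0.221. Lines of different number were not correlated for reference, so these values do not show a pairing of brain and lung lines. A model with the number as a block was an alternative. Other alternatives were quantile normalization again, median centring, the dimmest 33.3% of genes left out, an intensity trend, only the 6 arrays compared, every probe set as a feature, no moderation of the variances and each line left out in turn.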

Additional observations from a re-analysis of the deposited data

How the results depend on the processing

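Over 462 values of the 9 genes other than Ccnd2 (27 gene and comparison pairs under the alternatives), 0 passed. The smallest adjusted p was 0.109, for Cdkn2c in brain against lung lines with quantile normalization again, and the sign changed in 24. For Ccnd2 the brain against primary difference was 2.62 to 3.01, the brain against lung difference 2.03 to 2.31 and the lung against primary difference 0.46 to 0.85 over the fits that left out a line. The count of pathway genes called in brain against primary lines was 8, and 12 (3 higher, 9 lower) with the dimmest genes left out, 11 (3 higher, 8 lower) with quantile normalization again, 4 with median centring, 2 with only the 6 arrays compared, 2 with every probe set, 2 without moderation and 2 to 7 with a line left out. In brain against lung lines it was 7, and 2, 2, 1 and 0 with median centring, with only the 6 arrays, with every probe set and without moderation, and 1 to 6 with a line left out. Calls over all genes moved too, from 624 against primary lines to 828 with the dimmest genes left out and 784 with quantile normalization again. They were 512, 197, 210 and 51 with median centring, only the 6 arrays, every probe set and no moderation. With a line left out they were 273 to 556. Against lung lines they were 395, then 306, 107, 75 and 3 in the same fits, and 69 to 417 with a line left out. The cause was not tested, other than that fewer arrays or more features enter some of these fits. Of 15 calls on pathway genes, 3 held without any 1 line: Ccng2 in both comparisons and Ccnjl in brain against primary lines. The replicate block by mouse number left the pathway counts at 8 and 7. Over all genes, the calls rose with the block from 624 to 839 and from 395 to 566. In brain against lung lines the block changed no call on a pathway gene. In brain against primary lines Bmi1 (limma adjusted p = 0.0566) and Ccndbp1 (0.0684) did not pass with it, while E2f5 and Tfdp2 did. The lines come from different mice, so the number is not known to pair them in any comparison. The alternatives for single pathway genes were chosen after seeing the data.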
